A study of Homo sapiens with 12 samples.

Results

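RNA was measured in THP-1 cells that carried a short hairpin RNA against CYTH4 and in THP-1 cells that carried a control hairpin. The genes compared are those that reached at least 1 FPKM (a level scaled for transcript length and sequencing depth) in at least 3 of the 6 THP-1 libraries, 11494 of the 34626 genes in the deposited table. At the edge of that rule, the third highest FPKM was 1.00013 for RPL23AP74, just inside, and 0.99946 for NDUFAF2, just outside. There were 3 libraries of THP-1 shCYTH4 and 3 of THP-1 shControl. No other allele, drug or treatment is labelled. The series also holds 3 libraries of each arm in MV4-11, a second acute myeloid leukaemia line, which shared the estimate of spread and served for the difference between lines. The labels give neither the hairpin sequence nor the time after its delivery, nor whether the cells were a pool or a clone. They also do not say whether the 3 libraries of an arm came from separate cultures, so each p-value here reflects the spread among these libraries alone, and that spread may be technical.

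CYTH4 encodes cytohesin 4, an exchange factor that loads GTP onto small GTPases of the ARF family. ARF proteins recruit coats and lipid enzymes to Golgi and plasma membranes, and cytohesins are drawn to the membrane by phosphoinositides made by PI3-kinase. CYTH4 is found mainly in leukocytes, where cytohesins have been linked to integrin adhesion and trafficking. THP-1 is a human leukaemia line with features of monocytes. The 16 genes listed as THP-1 and monocyte markers summed to 1588 to 1737 FPKM in shCYTH4 libraries and 1167 to 1304 FPKM in shControl libraries. LYZ, the lysozyme gene described below, gave 728, 738 and 648 FPKM of the shCYTH4 sums and 392, 304 and 297 FPKM of the shControl sums. Of the 15 tested markers 5 had fitted log2 changes above 0 and 10 below, with a median of -0.19. CD14, the monocyte co-receptor for lipopolysaccharide, was low, at 1.28 ± 0.17 FPKM with shCYTH4 and 1.31 ± 0.0724 FPKM with shControl (SD, n = 3 each).

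Several features of the libraries precede the results. The totals were 71730093 to 74801219 estimated counts in shCYTH4 libraries and 74906879 to 77251642 in shControl libraries. ShCYTH4 replicates 1 and 2 were very alike (Pearson r = 0.993 across tested genes on log2(FPKM + 1), a description across genes). Replicate 3 stood apart from them, with r = 0.971 and 0.969. Its nearest library was shControl replicate 1, with r = 0.984, and the shControl libraries had r = 0.984 to 0.987 among themselves. Values are therefore given by library, in the order of replicates 1, 2 and 3, and counts are given with and without shCYTH4 replicate 3.

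A second split separated the arms completely. CALCA, which encodes the hormone calcitonin, had 0 estimated counts in all 3 shCYTH4 libraries, against 835, 912 and 905 in shControl libraries. Its shControl mean was 5.20 ± 0.183 FPKM (SD, n = 3), and against a floor of 12 counts per library it was at least 69.1-fold lower with shCYTH4. CEACAM5, a carcinoembryonic antigen of epithelia, and the peptide hormone genes NTS and SST were likewise at 0 counts with shCYTH4, at least 40.5-fold, 19.99-fold and 12.1-fold lower. Floors of this kind cover counting error only. SCG2 and VGF, secreted proteins of neuroendocrine granules, had 0.0906 to 0.200 and 0 to 0.0876 FPKM with shCYTH4, against 3.25 to 3.74 and 1.31 to 1.54 FPKM with shControl. Across all 34626 genes, 10 had at most 12 counts in every shCYTH4 library and at least 100 in every shControl library, and 0 had the reverse pattern. Beside CALCA, CEACAM5, NTS and SST these were SYT13, KRT18, TNR, KIF1A, PTPRM and PCSK1. These genes were chosen after their values were seen, as were the other genes named here that fall outside the rule for named genes.

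Several of these genes split the MV4-11 libraries in another way. CALCA stood at 0 counts in MV4-11 shControl replicate 1 and at 4.43 to 6.35 FPKM in the 5 other MV4-11 libraries, shCYTH4 included. CEACAM5, NTS and SST were also at 0 in that library and at 1.49 to 1.85, 1.87 to 2.76 and 3.20 to 4.18 FPKM in the other 5. KRT18 did not follow that order, at 624 counts in MV4-11 shControl replicate 1. So 4 libraries lacked CALCA, CEACAM5, NTS and SST while 8 held them at similar levels, and among the THP-1 libraries that split coincided with the arms. None of CALCA, CEACAM5, NTS and SST was called in the test described below (adjusted p = 0.110, 0.103, 0.09999 and 0.0755), while all were called without MV4-11 shControl replicate 1 (adjusted p = 7.56e-10, 1.24e-08, 5.6e-08 and 8.01e-07) and in the 6 THP-1 libraries alone (3.42e-07, 1.75e-06, 4.32e-06 and 2.59e-05). In THP-1, this difference between libraries and the hairpin cannot be told apart. MV4-11 shControl replicate 1 differed from the mean of replicates 2 and 3 by a median log2 of -0.02 over the genes called higher in THP-1 shCYTH4, 0.15 over those called lower and 0.02 over all tested genes. On the scaled log2 CPM, in 4 called rises and 1 called fall the 4 libraries without CALCA lay entirely to one side of the other 8. The rises were GALNT2, S1PR2, APOL2 and DNAJB2 and the fall LINC00938, a choice made after the values were seen. In FPKM this did not hold for APOL2, at 2.47 in MV4-11 shControl replicate 1 and 2.71 in THP-1 shControl replicate 1. Nor did it hold for DNAJB2, at 1.57 and 1.62 FPKM in MV4-11 shControl replicates 1 and 2. Over all tested genes, 31 were higher and 27 lower in those 4 libraries on the scaled log2 CPM.

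Epithelial, fibroblast and T cell markers were near 0 in both arms, and lower with shCYTH4. The 10 epithelial and fibroblast markers found in the table, of 12 listed, summed to 0.578 to 0.849 FPKM with shCYTH4 and 1.74 to 2.62 FPKM with shControl, and all 10 stayed under 1 FPKM in every THP-1 library. The 6 T cell markers found, of 10 listed, summed to 0.233 to 0.486 FPKM with shCYTH4 and 0.925 to 1.17 FPKM with shControl. Markers of B cells (7 found of 10), erythroid cells (8 of 12) and megakaryocytes (6 of 8) summed to 3.67 to 4.65, 3.21 to 3.88 and 2.57 to 2.81 FPKM with shCYTH4, against 2.76 to 3.59, 3.02 to 3.46 and 1.73 to 3.06 FPKM with shControl. The part of these markers in the results below was not tested. In bulk RNA, fewer cells of a type and less RNA per cell cannot be told apart.

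CYTH4 itself (ENSG00000100055, chromosome 22, positions 37282027 to 37315341 of the file) was lower in every shCYTH4 library. It stood at 15.7, 15.0 and 15.7 FPKM with shCYTH4 and at 25.7, 32.2 and 21.01 FPKM with shControl. All 3 shCYTH4 libraries lay below the lowest shControl library, and nearly all of the spread was among the controls, at 15.4 ± 0.366 FPKM with shCYTH4 against 26.3 ± 5.64 FPKM with shControl (SD, n = 3 each). The fitted log2 change was -0.88 (SE 0.19, edgeR adjusted p = 0.0344), and against the control mean the 3 libraries stood at -0.83, -0.88 and -0.86. The 3 shCYTH4 libraries thus held like levels of CYTH4, replicate 3 included. The call of CYTH4 in THP-1 was lost without shCYTH4 replicate 1 (adjusted p = 0.164), shCYTH4 replicate 2 (0.142), shControl replicate 1 (0.0612), shControl replicate 2 (0.155, with a log2 change of -0.67) or MV4-11 shCYTH4 replicate 2 (0.0542). An exact permutation test on the FPKM, two-sided, gave p = 0.1, the smallest that 3 libraries against 3 allow. In MV4-11, CYTH4 was 19.5 ± 3.58 FPKM with shCYTH4 and 18.3 ± 2.44 FPKM with shControl (SD, n = 3 each), a log2 change of 0.03, and the difference between the lines had an adjusted p of 0.123.

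**Figure D1:**
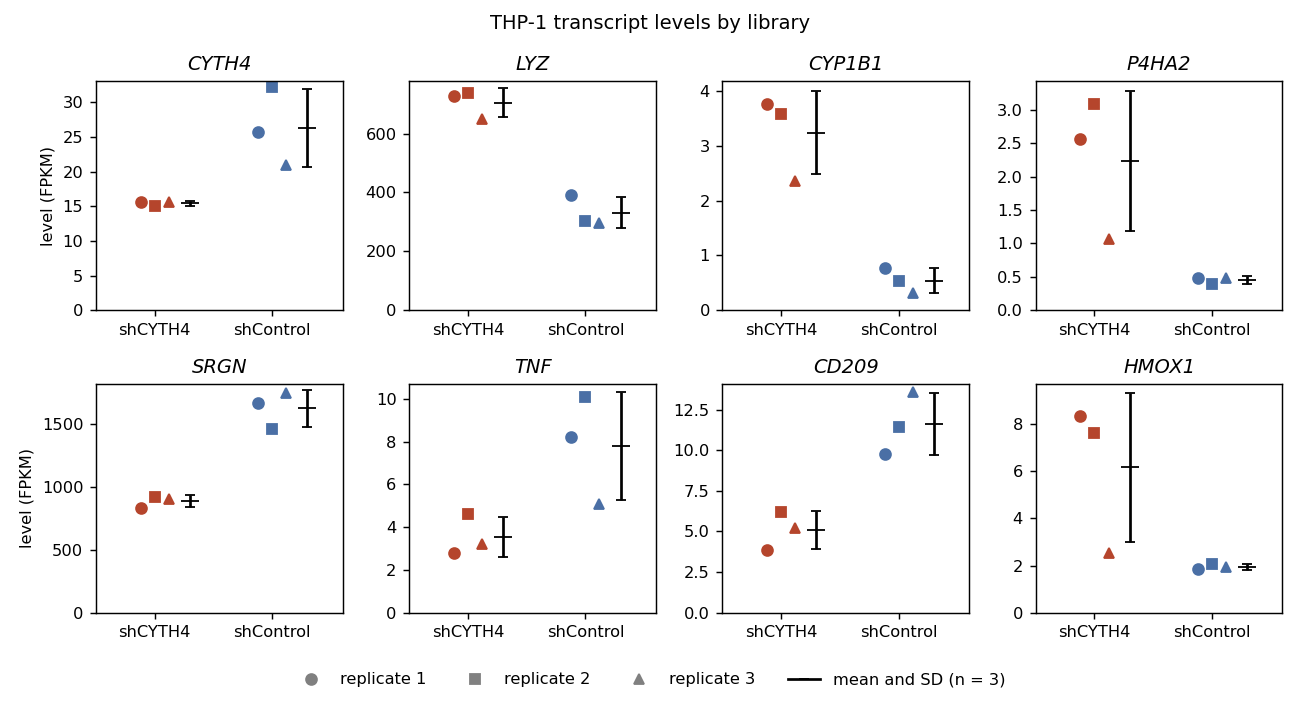
Level in FPKM (y axis, linear from 0) of 8 genes in the 3 shCYTH4 libraries, on the left of each panel, and the 3 shControl libraries, on the right, with marker shape for the replicate and a bar for the mean and SD (n = 3). CYTH4, SRGN, TNF and CD209 are lower and LYZ, CYP1B1, P4HA2 and HMOX1 higher with shCYTH4, and the 3rd shCYTH4 library is the nearest to the controls for HMOX1, at 2.53 FPKM, and P4HA2, at 1.07 FPKM.

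The other cytohesins and their GTPases did not pass the test. CYTH3, a broadly expressed relative, was at 5.84, 6.13 and 6.47 FPKM with shCYTH4 and 3.79, 3.45 and 4.23 FPKM with shControl. The groups did not overlap, yet its log2 change of 0.58 (SE 0.19) had an adjusted p of 0.132. CYTH1 had a log2 change of 0.22 and CYTH2 of -0.18 (adjusted p = 0.528 and 0.566). ARF1, which acts at the Golgi, and ARF6, which acts at the plasma membrane, had log2 changes of 0.15 and 0.18 (adjusted p = 0.642 and 0.69). Of the 26 tested genes listed as cytohesins, ARF GTPases and their regulators, CYTH4 was the 1 called, and the list's median log2 change was 0.13, against 0.00 over all 11494 genes.

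In the test of shCYTH4 against shControl over the 11494 genes, 148 passed an adjusted p of 0.05, which is 1.29%. Of these, 57 were higher with shCYTH4 (0.496%) and 91 lower (0.792%), and 26 in each direction changed by at least 1 on the log2 scale. At an adjusted p under 0.01, 12 remained, and 1819 genes had an unadjusted p under 0.05. The 3 shCYTH4 libraries lay on the same side of the control mean, and the arms did not overlap, for all 148 called genes. Over all tested genes, 2773 had arms that did not overlap (24.1%). The median size of the change over the called genes was 1.02, 0.904 and 0.737 on the log2 scale in shCYTH4 replicates 1, 2 and 3, and replicate 3 had the smallest change for 99 of the 148. Some 21 of the called genes had passed the 1 FPKM rule through 1 arm only, so that a difference was built into their selection. They include CYP1B1, P4HA2, WLS and GABARAPL1, which passed through shCYTH4 libraries, and IL2RG, which passed through shControl libraries.

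The number of genes called in THP-1 depended on single libraries. Without shCYTH4 replicate 3, 743 genes were called (6.46%), 347 higher (3.02%) and 396 lower (3.45%), and they included all 148. Without shCYTH4 replicate 1 or 2, 9 and 14 genes were called, and without shControl replicate 1, 2 or 3, 81, 19 and 34. The libraries of the other line entered through the shared spread: without MV4-11 shCYTH4 replicates 1, 2 and 3 there were 344, 55 and 67 calls, and 96 without MV4-11 shControl replicate 2. In the 6 THP-1 libraries alone, 120 genes were called (1.04%), 62 higher and 58 lower, of which 74 were among the 148. Of the genes named below, those called over 12 libraries but not in these 6 were DNAJA4 (adjusted p = 0.122), HMOX1 (0.0894), CDKN1A (0.071), MS4A4E and MTATP6P1 (0.0672 each), SELPLG (0.0649), BAG3 and MT-ATP6 (0.0639 each), H2AC20 (0.0612), MT-CO2 (0.0567), CXCR3 (0.0553), TNF (0.0545), GABARAPL1 (0.0505), and FDFT1 and FCGR1A (0.05003 each). The split by direction also moved with the scale. Limma on log2(FPKM + 1) called 359 genes higher and 158 lower, and limma on log2(FPKM + 0.1) called 175 higher and 81 lower, with the median of all genes at 0.09 and 0.10 on these scales.

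Calls for 8 genes held whichever of the 6 THP-1 libraries was left out. These were CYP1B1, P4HA2, DNAJB2, LYZ, BASP1 and ENSG00000266976, which rose, and SRGN and IL2RG, which fell. Of these, CYP1B1, P4HA2 and IL2RG are among the genes that passed the 1 FPKM rule through 1 arm only. ENSG00000266976, which has no symbol in the file, reached 142, 138 and 96.3 FPKM with shCYTH4 against 55.3, 40.5 and 47.9 FPKM with shControl. Its log2 change was 1.29 (SE 0.18, adjusted p = 0.00456).

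**Figure D2:**
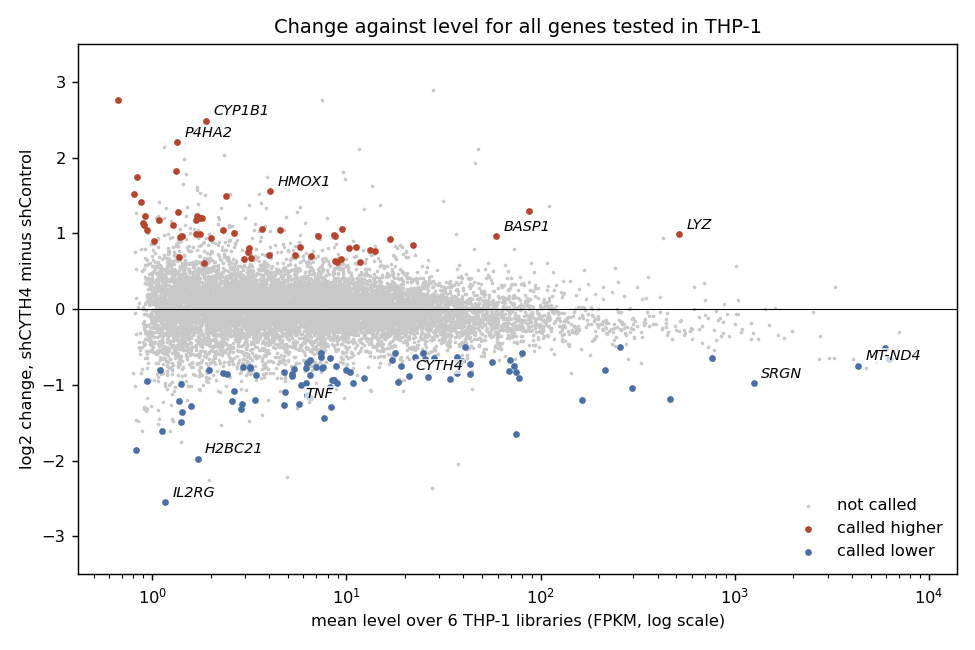
Fitted log2 change, shCYTH4 minus shControl (y axis), against the mean FPKM over 6 THP-1 libraries (x axis, log scale) for all 11494 genes, with the 57 called higher in red and the 91 called lower in blue. Called genes lie at every level, from IL2RG near 1 FPKM to LYZ, SRGN and MT-ND4 at the high end, and 8 genes beyond ±3.5, of which 0 were called, fall outside the axis.

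Among called genes with a symbol, the largest rise was that of CYP1B1, a cytochrome P450 that oxidises oestrogens and polycyclic hydrocarbons and is a target of the aryl hydrocarbon receptor. It stood at 3.77, 3.58 and 2.37 FPKM with shCYTH4 and at 0.773, 0.531 and 0.309 FPKM with shControl. The log2 change was 2.49 (SE 0.31, adjusted p = 0.00317). The lowest shCYTH4 library was above the highest control, but with every control under 1 FPKM the 1 FPKM rule itself required that. P4HA2, a subunit of the prolyl hydroxylase that matures collagen, had 2.57, 3.08 and 1.07 FPKM against 0.482, 0.390 and 0.483 FPKM in shControl, a log2 change of 2.20 (SE 0.31, adjusted p = 0.00456). The arms did not overlap, which the same rule required, as every control was under 1 FPKM. Replicate 3 sat lower than the others, 1.10 above the control mean where replicates 1 and 2 sat 2.40 and 2.67 above it. P4HA2 overlaps PDLIM4 and SLC22A4 on the opposite strand, and since use of the strand in counting is not stated, its level is uncertain.

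Further rises joined membrane and signalling proteins. WLS, which carries Wnt ligands to the cell surface, rose by 1.83 on the log2 scale (SE 0.32, adjusted p = 0.0133), with its shCYTH4 libraries at 1.93, 2.26 and 0.97. SLC19A2, a thiamine transporter, rose by 1.23 and DLL1, a Notch ligand, by 1.18 (adjusted p = 0.0376 and 0.0431). DLL1 overlaps FAM120B on the opposite strand, so its level is uncertain. NPL, which breaks down sialic acid, rose by 1.21 with 2.86, 2.64 and 2.26 FPKM in shCYTH4 libraries and 1.07, 0.979 and 1.06 FPKM in shControl libraries (adjusted p = 0.00613). TSPAN33, a tetraspanin, rose by 1.20 and APOL2, an apolipoprotein L, by 1.06 (adjusted p = 0.0344 and 0.013). In these genes all 3 shCYTH4 libraries were above all controls, which for WLS the 1 FPKM rule itself required. Of the 12 largest rises, 3 kept the call without shCYTH4 replicate 1 (CYP1B1, P4HA2 and DNAJB2), 4 without replicate 2 and 12 without replicate 3, and 7, 4 and 4 kept it without shControl replicates 1, 2 and 3, with adjusted p up to 0.227.

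Among abundant transcripts, LYZ and BASP1 rose in all 3 shCYTH4 libraries. LYZ, which encodes the secreted antibacterial enzyme lysozyme, stood at 728, 738 and 648 FPKM with shCYTH4 and 392, 304 and 297 FPKM with shControl. Means were 705 ± 49.6 and 331 ± 53.1 FPKM in these arms (SD, n = 3 each), and the log2 change was 0.99 (SE 0.12, adjusted p = 0.00302). BASP1, a membrane-bound protein of the inner leaflet, had 82.6, 82.0 and 75.2 FPKM with shCYTH4 against 35.0, 36.1 and 43.0 FPKM with shControl, a log2 change of 0.96 (SE 0.13, adjusted p = 0.00317). The arms did not overlap for either gene. ARL2BP, an effector of the ARF-like GTPase ARL2, rose by 0.77 and RRBP1, a ribosome receptor of the endoplasmic reticulum, by 0.78 (adjusted p = 0.0131 and 0.0344). RRBP1 lost its call without shCYTH4 replicate 1 (0.203), shCYTH4 replicate 2 (0.124) or shControl replicate 1 (0.0871), 2 (0.104) or 3 (0.123), and ARL2BP without shCYTH4 replicate 1 (0.0949) or shControl replicate 2 (0.0777) or 3 (0.0573). CDKN1A, which encodes the cyclin-dependent kinase inhibitor p21, rose by 0.85, with 30.4, 30.7 and 25.9 FPKM in shCYTH4 libraries and 15.8, 18.9 and 9.90 FPKM in shControl libraries (adjusted p = 0.0475). CDKN1A lost its call without shCYTH4 replicate 1 (0.215), shCYTH4 replicate 2 (0.171), shControl replicate 1 (0.100179) or shControl replicate 3 (0.146). It was the 1 call among 17 tested p53 targets and cell cycle inhibitors, whose median log2 change was -0.02.

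**Figure D3:**
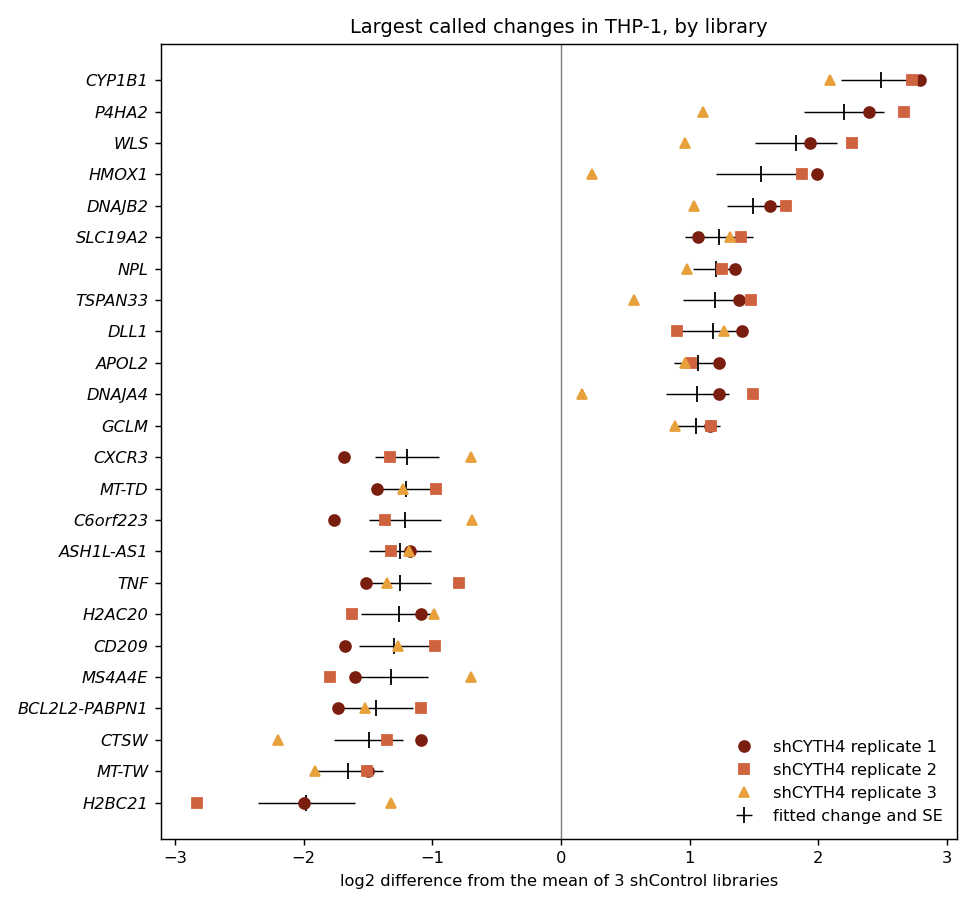
Log2 difference of each shCYTH4 library from the mean of the 3 shControl libraries (x axis) for the 12 largest called rises and 12 largest called falls with a symbol and a mean of at least 2 FPKM in the higher arm, with the fitted change and its SE in black. Replicates 1 and 2 lie close together for most rises, replicate 3 is nearer to 0 for HMOX1 (0.24) and DNAJA4 (0.16), and every point lies on its gene's own side of 0.

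Chaperone genes were higher in shCYTH4 replicates 1 and 2 than in replicate 3. Heat shock proteins refold damaged proteins, and their genes are switched on by the factor HSF1, which binds inverted repeats of the letters GAA. All 21 tested heat shock genes had a fitted change above 0, with a median of 0.56, but 2 were called: DNAJB2 and BAG3. The medians by library were 0.73 and 0.85 in replicates 1 and 2 and 0.05 in replicate 3. Without replicate 3, 13 of the 21 were called higher and 0 lower, against 3.02% and 3.45% of all tested genes.

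HSPA1A, the inducible HSP70, is described as one of the genes chosen for the largest gap between replicate 3 and replicates 1 and 2, so its order of libraries follows from that choice. It stood at 93.0, 122 and 18.9 FPKM in shCYTH4 libraries and at 15.3, 15.7 and 19.3 FPKM in shControl libraries. Replicates 1 and 2 were far above every control and replicate 3 lay within the range of the controls. The log2 change of 2.12 (SE 0.53) had an adjusted p of 0.0889. HSPA1B, its near-identical neighbour, had 87.8, 112 and 22.9 FPKM against 17.6, 17.4 and 19.7 FPKM in shControl, and reads of the pair may have been divided between them. HSPA8, the constitutive HSC70, had 712, 783 and 229.5 FPKM with shCYTH4 against 254, 277 and 309 FPKM with shControl.

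DNAJB2 and BAG3 differed from the controls in all 3 libraries. DNAJB2, a co-chaperone of HSP70, had 3.93, 4.25 and 2.67 FPKM with shCYTH4 against 1.02, 1.24 and 1.29 FPKM with shControl, a log2 change of 1.49 (SE 0.20, adjusted p = 0.00376). BAG3, which hands HSP70 clients to autophagy, had 25.5, 28.0 and 14.3 FPKM against 11.6, 11.1 and 10.6 FPKM in shControl, a log2 change of 0.92 (SE 0.20, adjusted p = 0.0376). BAG3 lost its call in each fit that left out 1 of shCYTH4 replicate 1 (0.211), shCYTH4 replicate 2 (0.178), shControl replicate 1 (0.0842), 2 (0.137) or 3 (0.132). DNAJA4, another HSP70 co-chaperone, was among the 12 largest rises at 1.06 (adjusted p = 0.0478), with libraries at 1.23, 1.49 and 0.16. It overlaps WDR61 on the other strand, so its level is uncertain.

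Start-site sequences of these genes are shown because the chaperones moved together in shCYTH4 replicates 1 and 2. Each window holds 300 bases around the annotated start, 5′ to 3′, from RefSeq on GRCh38.p14. Capitals mark the letters GAANNTTC, a minimal inverted pair of the heat shock element, searched on both strands, and in GCLM the match to TGACNNNGC, the antioxidant response element core, here read on the opposite strand.
HSPA1A, chr6:31815293-31815592, plus strand: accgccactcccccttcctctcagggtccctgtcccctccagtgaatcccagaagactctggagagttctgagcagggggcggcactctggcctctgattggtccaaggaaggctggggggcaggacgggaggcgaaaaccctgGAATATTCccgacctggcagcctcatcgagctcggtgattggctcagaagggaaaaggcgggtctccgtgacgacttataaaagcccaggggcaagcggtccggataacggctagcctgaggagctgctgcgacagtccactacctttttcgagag
DNAJB2, chr2:219279116-219279415, plus strand: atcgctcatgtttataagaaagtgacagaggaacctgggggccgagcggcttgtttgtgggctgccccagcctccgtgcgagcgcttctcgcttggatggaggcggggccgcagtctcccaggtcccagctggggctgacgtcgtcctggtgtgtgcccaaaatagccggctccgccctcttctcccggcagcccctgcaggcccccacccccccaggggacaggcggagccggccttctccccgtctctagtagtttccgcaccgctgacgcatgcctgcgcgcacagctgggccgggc
GCLM, chr1:93909381-93909680, minus strand: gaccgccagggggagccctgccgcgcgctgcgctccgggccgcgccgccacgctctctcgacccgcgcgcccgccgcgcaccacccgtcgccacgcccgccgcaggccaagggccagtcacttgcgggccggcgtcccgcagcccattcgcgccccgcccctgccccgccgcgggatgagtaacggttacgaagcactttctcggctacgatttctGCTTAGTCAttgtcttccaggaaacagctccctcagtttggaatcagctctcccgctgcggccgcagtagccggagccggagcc

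GAANNTTC occurs in the HSPA1A window and not in those of DNAJB2 and BAG3, the called members of the heat shock list. It was found in 7 of the 19 windows available for the 21 tested heat shock genes (36.8%), among them HSPA1B, HSPA8 and HSPB1, and in 6.77% of 35116 promoter windows of that length. Among the 41 called rises with a window it was found in 2 (4.88%). TGACNNNGC was found in 13.3% of the 35116 windows, in 9 of those 41 (22.0%) and in 3 of the 54 called falls with a window (5.56%). Of the 15 windows available for the 20 tested NRF2 and iron genes, 4 held it (26.7%), GCLM among them. HMOX1 had no window. A match is a description of letters, not of binding.

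GCLM and HMOX1 belong to the oxidative stress genes that the factor NRF2 drives through that antioxidant element. GCLM, the regulatory subunit of the enzyme that starts glutathione synthesis, had 6.59, 6.59 and 5.61 FPKM with shCYTH4 against 3.75, 2.34 and 2.39 FPKM with shControl, a log2 change of 1.05 (SE 0.19, adjusted p = 0.0181). HMOX1, the haem-degrading oxygenase, had 8.32, 7.63 and 2.53 FPKM against 1.83, 2.08 and 1.92 FPKM in shControl, a log2 change of 1.55 (SE 0.35, adjusted p = 0.0431). Both rose with no overlap, GCLM about equally in the 3 libraries and HMOX1 mostly in replicates 1 and 2. These were the 2 calls among 20 tested NRF2 and iron genes, whose median was 0.29. NQO1, a quinone reductase, had a log2 change of 0.33 (adjusted p = 0.437) and TXNRD1, thioredoxin reductase, of 0.10 (0.83). Neither GCLM nor HMOX1 kept its call without shCYTH4 replicate 1 (adjusted p up to 0.227), shCYTH4 replicate 2 (0.173), shControl replicate 2 (0.142) or shControl replicate 3 (0.141), and HMOX1 lost it without shControl replicate 1 (0.112).

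Among 7 tested genes of the aryl hydrocarbon receptor pathway, CYP1B1 was the 1 called. TIPARP, a target that restrains the receptor, had 4.32, 5.13 and 4.33 FPKM with shCYTH4 against 3.51, 2.52 and 2.51 FPKM with shControl, without overlap, and an adjusted p of 0.0895. AHR itself had a log2 change of -0.56 (adjusted p = 0.258). AHRR, the receptor's repressor, had 20.4, 18.04 and 18.9 FPKM against 2.70, 2.64 and 7.02 FPKM in shControl (log2 change 2.11, adjusted p = 0.09999). The readthrough gene PDCD6-AHRR, which overlaps it, went the other way, with 0.221, 0.0457 and 1.42 FPKM against 21.9, 21.8 and 5.91 FPKM in shControl, and reads of this overlapping pair may have been divided between them, so AHRR is uncertain.

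The integrated stress response ran opposite to the chaperones among the shCYTH4 libraries. This pathway turns shortage of amino acids or stress in the endoplasmic reticulum into translation of the factor ATF4, which drives genes of amino acid synthesis. Of 24 tested genes 0 were called, with a median of 0.16, and the medians by library were -0.14 and -0.30 in replicates 1 and 2 and 0.48 in replicate 3. Without replicate 3, 9 were called lower and 3 higher, against 3.45% and 3.02% of all tested genes. CHAC1, a glutathione-degrading ATF4 target, was chosen for the gap between replicate 3 and replicates 1 and 2, and had 1.10, 0.478 and 17.3 FPKM with shCYTH4 against 8.79, 7.95 and 8.24 FPKM with shControl. The first 2 libraries lay below every control and the last above every control.

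PSAT1 and ASNS were chosen for that gap too, so their order of libraries is a description. PSAT1, an enzyme of serine synthesis, had 32.0, 28.8 and 152 FPKM with shCYTH4 against 79.9, 54.1 and 91.1 FPKM with shControl. ASNS, asparagine synthetase, had 7.17, 3.80 and 22.9 FPKM against 11.7, 8.22 and 13.6 FPKM in shControl. In each the third shCYTH4 library was the highest of the 6 and the others the lowest, and the fitted changes of PSAT1 and ASNS were -0.20 and -0.10 (adjusted p = 0.924 and 0.964). DDIT3, which encodes CHOP, had all 3 shCYTH4 libraries above the controls, at 16.5, 14.2 and 39.5 FPKM against 13.1, 9.75 and 13.6 FPKM in shControl, with an adjusted p of 0.172. DNAJB9, a co-chaperone of the endoplasmic reticulum, did so as well, at 2.73, 3.10 and 3.21 FPKM against 1.73, 1.29 and 2.07 FPKM in shControl (adjusted p = 0.113).

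**Figure D4:**
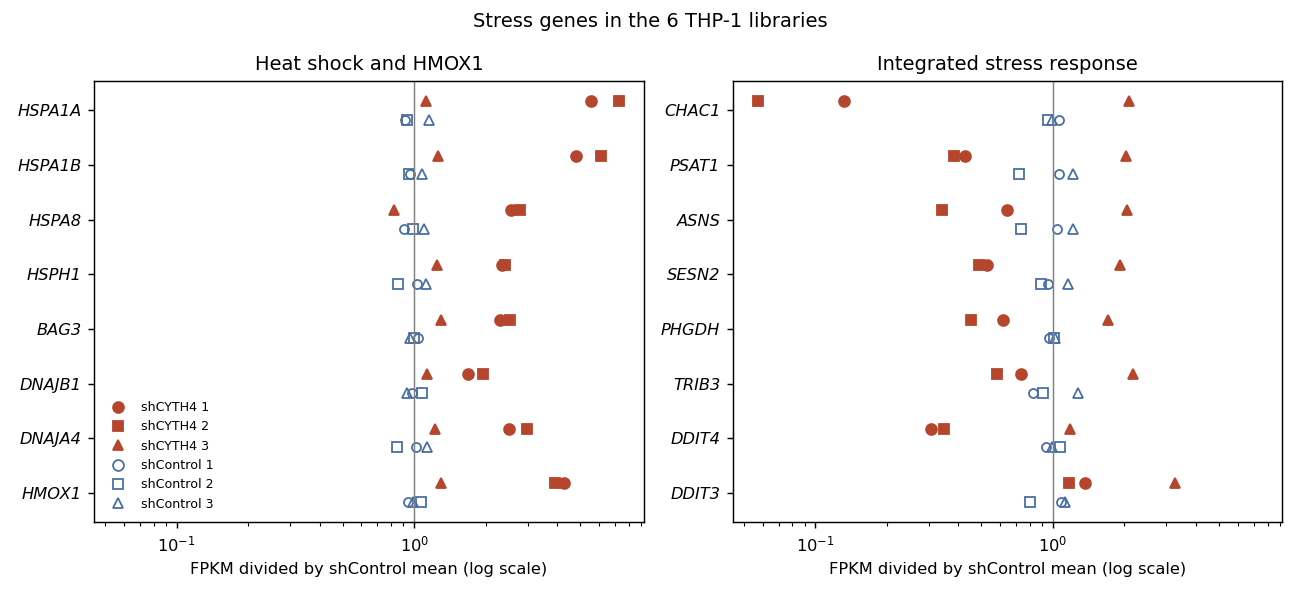
FPKM of each of the 6 THP-1 libraries divided by the shControl mean (x axis, log scale) for 8 heat shock and oxidative stress genes, left, and 8 genes of the integrated stress response, right, with shCYTH4 filled and above and shControl open and below. The circle and square of shCYTH4 replicates 1 and 2 lie to the right of the triangle of replicate 3 for the genes on the left, and to its left for the genes on the right, where CHAC1 spans 0.478 to 17.3 FPKM. The genes shown are a selection, with HSPA1A, CHAC1, PSAT1 and ASNS chosen for that gap, so the order is a description. DNAJB9 of the same stress response list, at 2.73, 3.10 and 3.21 FPKM with shCYTH4, is not shown.

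The most abundant protein-coding nuclear gene to fall was SRGN, which encodes serglycin, the proteoglycan core on which leukocyte granules pack their contents. It stood at 834, 922 and 905 FPKM with shCYTH4 and 1665, 1463 and 1748 FPKM with shControl. Every shCYTH4 library was far below every control, with a log2 change of -0.98 (SE 0.13, adjusted p = 0.00317). CTSW, cathepsin W, a protease of lymphoid cells, had 1.02, 0.848 and 0.467 FPKM against 2.19, 2.11 and 1.85 FPKM in shControl, a log2 change of -1.495 (SE 0.27, adjusted p = 0.0168). CTSW lost its call without shCYTH4 replicate 2 (0.0654) or shControl replicate 2 (0.0828), and it overlaps FIBP on the other strand, so its level is uncertain. With LYZ, these made 1 rise and 2 falls among 24 tested granule and lysosomal effector genes, whose median was 0.03.

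Surface receptors and cytokines of monocytes contributed several falls. CD209, the lectin DC-SIGN, had 3.85, 6.19 and 5.24 FPKM with shCYTH4 against 9.78, 11.4 and 13.6 FPKM with shControl, a log2 change of -1.30 (SE 0.27, adjusted p = 0.0363). FCGR1A, the high-affinity IgG receptor, had 39.0, 43.5 and 52.4 FPKM against 61.8, 67.8 and 73.7 FPKM in shControl, a log2 change of -0.70 (SE 0.15, adjusted p = 0.0344). Neither gene's arms overlapped. They were the 2 calls among 27 tested monocyte and macrophage surface receptors, of which 20 had changes below 0 and whose median was -0.19. CSF1R, the receptor for the macrophage growth factor, had a log2 change of -0.19 (adjusted p = 0.772). Neither CD209 nor FCGR1A kept its call without shCYTH4 replicate 1 (adjusted p up to 0.215), shCYTH4 replicate 2 (0.148), shControl replicate 2 (0.137) or shControl replicate 3 (0.123).

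TNF, the inflammatory cytokine, fell to 2.80, 4.62 and 3.20 FPKM with shCYTH4, against 8.20, 10.1 and 5.10 FPKM with shControl. The highest shCYTH4 library lay close to the lowest control but did not reach it, and the log2 change was -1.25 (SE 0.24, adjusted p = 0.0228). It was the 1 call among 13 tested NF-kB and inflammatory genes, with a median of -0.08, and was lost without shCYTH4 replicate 1 (0.146), shControl replicate 1 (0.0526) or shControl replicate 2 (0.114). SELPLG, the ligand of P-selectin, fell by 0.69 on the log2 scale (adjusted p = 0.0478) as the 1 call among 21 integrins and adhesion genes, lost without shCYTH4 replicate 1 (0.227), shCYTH4 replicate 2 (0.0803), shControl replicate 2 (0.15) or shControl replicate 3 (0.186). MS4A4E, a relative of the monocyte gene MS4A4A, fell by 1.32 (adjusted p = 0.039). It overlaps MS4A4A on the other strand, so its level is uncertain.

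IL2RG and CXCR3, receptors better known from lymphocytes, fell. IL2RG, the common chain of the interleukin 2 receptor family, was chosen after its values were seen, since its control mean of 1.97 FPKM falls just short of the rule for named genes. It had 0.214, 0.281 and 0.577 FPKM with shCYTH4 against 2.00, 2.12 and 1.79 FPKM with shControl, a log2 change of -2.55 (SE 0.31, adjusted p = 0.00302), the largest fall among the called genes. CXCR3, a chemokine receptor, had 1.496, 1.91 and 3.06 FPKM against 4.93, 4.96 and 3.85 FPKM in shControl, a log2 change of -1.20 (SE 0.25, adjusted p = 0.0344). Both were lower in all 3 libraries, an order that the 1 FPKM rule itself required for IL2RG, and least so in replicate 3. The T cell markers found, given above, were lower in the same libraries, all under 1 FPKM, and their part was not tested.

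Of the 12 largest falls, 1 kept the call without shCYTH4 replicate 1 (CTSW), 2 without replicate 2 (TNF and MT-TD) and 12 without replicate 3, and 5, 0 and 6 kept it without shControl replicates 1, 2 and 3, with adjusted p up to 0.227. The readthrough gene BCL2L2-PABPN1 is among them, at -1.44 (adjusted p = 0.0344), and its reads overlap both parent genes. C6orf223, of which no function is given here, fell by 1.21 (adjusted p = 0.0457).

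On the lists of replication-dependent histones and of S phase genes, 3 tested genes were called lower. H3-7, H2AX and CHTF18, which are not on these lists, were also called lower. Histone genes of the replication-dependent class are transcribed in S phase, and their messages normally lack the poly(A) tail by which these libraries were selected. H2BC21 had 0.694, 0.378 and 1.14 FPKM with shCYTH4 against 3.08, 3.13 and 1.85 FPKM with shControl, a log2 change of -1.98 (SE 0.37, adjusted p = 0.0228). H2AC20, its neighbour on chromosome 1, had 3.21, 2.17 and 3.54 FPKM against 6.82, 8.25 and 4.76 FPKM in shControl, a log2 change of -1.26 (SE 0.29, adjusted p = 0.0457). They were the 2 calls among the 7 tested genes of the histone list, 6 of which had changes below 0, with a median of -0.90. Over all tested genes, 0.792% were called lower. Summed over the list, histones stood at 40.2, 39.7 and 48.0 FPKM with shCYTH4 and 73.8, 83.0 and 40.8 FPKM with shControl, so the arms overlapped. Histone copies are similar in sequence, so the share of each is uncertain. H2AC20 lost its call in each fit without 1 of shCYTH4 replicates 1 and 2 and the 3 controls (adjusted p up to 0.210), and H2BC21 kept it in 1 of these 5, that without shControl replicate 3.

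POLD1, the catalytic subunit of DNA polymerase delta, fell to 31.1, 30.9 and 28.4 FPKM with shCYTH4, against 39.6, 49.6 and 48.5 FPKM with shControl, a log2 change of -0.72 (SE 0.15, adjusted p = 0.0344). The arms did not overlap and replicate 3 was the lowest. It was the 1 call among 30 tested S phase genes, of which 29 had changes below 0, with a median of -0.26 and library medians of -0.24, -0.12 and -0.55. The list's summed levels overlapped between the arms, at 1407, 1436 and 1144 FPKM with shCYTH4 and 1458, 1427 and 1550.2 FPKM with shControl. The call was lost without shCYTH4 replicate 1 (0.155), shCYTH4 replicate 2 (0.112), shControl replicate 2 (0.140) or shControl replicate 3 (0.118). The 25 tested mitosis genes had a median of 0.04 and 0 calls. All 30 tested cytosolic ribosomal protein genes had fitted changes below 0, with a median of -0.26, library medians of -0.19, -0.19 and -0.36, and 0 calls. Their summed levels overlapped between the arms, at 12933, 12762 and 11361 FPKM with shCYTH4 and 12231, 14414 and 13673 FPKM with shControl.

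Transcripts of the mitochondrial genome, which encode core subunits of the respiratory chain, were lower throughout. The 13 mitochondrial mRNAs made up 4.17, 4.44 and 5.403% of estimated counts with shCYTH4 and 5.67, 6.97 and 6.15% with shControl. The highest shCYTH4 library was below the lowest control, with means of 4.67 ± 0.647% and 6.26 ± 0.659% in these arms (SD, n = 3 each, exact permutation test, two-sided, p = 0.1, the smallest possible). MT-ND4, a subunit of complex I, had 2973, 3192 and 4017 FPKM with shCYTH4 against 4756, 5749 and 5289 FPKM with shControl, a log2 change of -0.75 (SE 0.16, adjusted p = 0.0357).

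All 13 mRNAs had changes below 0, with a median of -0.53 and library medians of -0.65, -0.56 and -0.35, and 3 were called. The others called were MT-ATP6, a subunit of ATP synthase, at -0.66 (adjusted p = 0.0437), and MT-CO2, a subunit of complex IV, at -0.52 (0.037). Over the 37 tested genes of the mitochondrial chromosome 8 were called, all lower, against 0.792% called lower over all tested genes. They included the transfer RNA genes MT-TW at -1.65, MT-TD at -1.21 and MT-TT at -1.19 (adjusted p = 0.0124, 0.0127 and 0.013). Transfer RNAs are shorter than the fragments such libraries usually keep, and nuclear copies such as MTATP6P1 share reads with the mitochondrial genes. Leaving out shCYTH4 replicate 1 (adjusted p up to 0.228), shCYTH4 replicate 2 (0.187), shControl replicate 2 (0.190) or shControl replicate 3 (0.12) ended all 3 mRNA calls. The 29 tested nuclear genes for respiratory chain subunits had a median of -0.05 and 0 calls.

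Genes of cholesterol synthesis leaned downward. FDPS, which makes farnesyl diphosphate, had 54.3, 54.3 and 63.2 FPKM with shCYTH4 against 83.4, 100.3 and 84.5 FPKM with shControl, a log2 change of -0.76 (SE 0.13, adjusted p = 0.013). It overlaps RUSC1-AS1 on the other strand. FDFT1, squalene synthase, the next step toward sterols, had 50.4, 51.4 and 66.5 FPKM against 81.9, 90.7 and 76.6 FPKM in shControl, a log2 change of -0.68 (SE 0.14, adjusted p = 0.0332). Neither gene's arms overlapped, and replicate 3 was the highest shCYTH4 library for both. They were the 2 calls among 23 tested genes, 19 of which had changes below 0, with a median of -0.35 and library medians of -0.40, -0.41 and -0.09. Without shCYTH4 replicate 3, 7 of the 23 were called lower and 0 higher, against 3.45% and 3.02% of all tested genes. Neither FDPS nor FDFT1 kept its call without shCYTH4 replicate 1 (adjusted p up to 0.207), shCYTH4 replicate 2 (0.155) or shControl replicate 2 (0.138), and FDFT1 lost it also without shControl replicate 1 (0.0531) or 3 (0.0722).

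Other metabolic and signalling lists held 1 call or none in each direction. Among 23 tested glycolysis and hypoxia genes, P4HA2 rose and NDRG1, a hypoxia-induced gene, fell by 0.64 on the log2 scale (adjusted p = 0.0344), with a median of -0.11. The 20 fatty acid and lipid droplet genes had a median of -0.28 and 0 calls. ETV5, a transcription factor induced by ERK signalling, rose to 4.13, 3.93 and 4.06 FPKM with shCYTH4, against 2.13, 2.11 and 2.42 FPKM with shControl (log2 change 0.76, adjusted p = 0.0437). It was the 1 call among 16 immediate early and ERK feedback genes, and it overlaps DGKG on the same strand, so its level is uncertain. GABARAPL1, which builds autophagosome membranes, rose by 1.29 (adjusted p = 0.0431), as the 1 call among 25 lysosome and autophagy genes, 21 of which had changes above 0, with a median of 0.21. The 27 interferon-stimulated genes had a median of 0.36, and the 20 myeloid transcription factors of -0.01, each with 0 calls. PI3K, AKT and mTOR components (21 genes), the BCL2 family (15), MHC class I (15), MHC class II (6), MYC and ribosome biogenesis (25) and HOXA and MLL fusion targets (13) also had 0 calls. NDRG1, ETV5 and GABARAPL1 were not called without shCYTH4 replicate 1 (adjusted p up to 0.227), shCYTH4 replicate 2 (0.155) or shControl replicates 1 (0.112), 2 (0.153) or 3 (0.157).

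**Figure D5:**
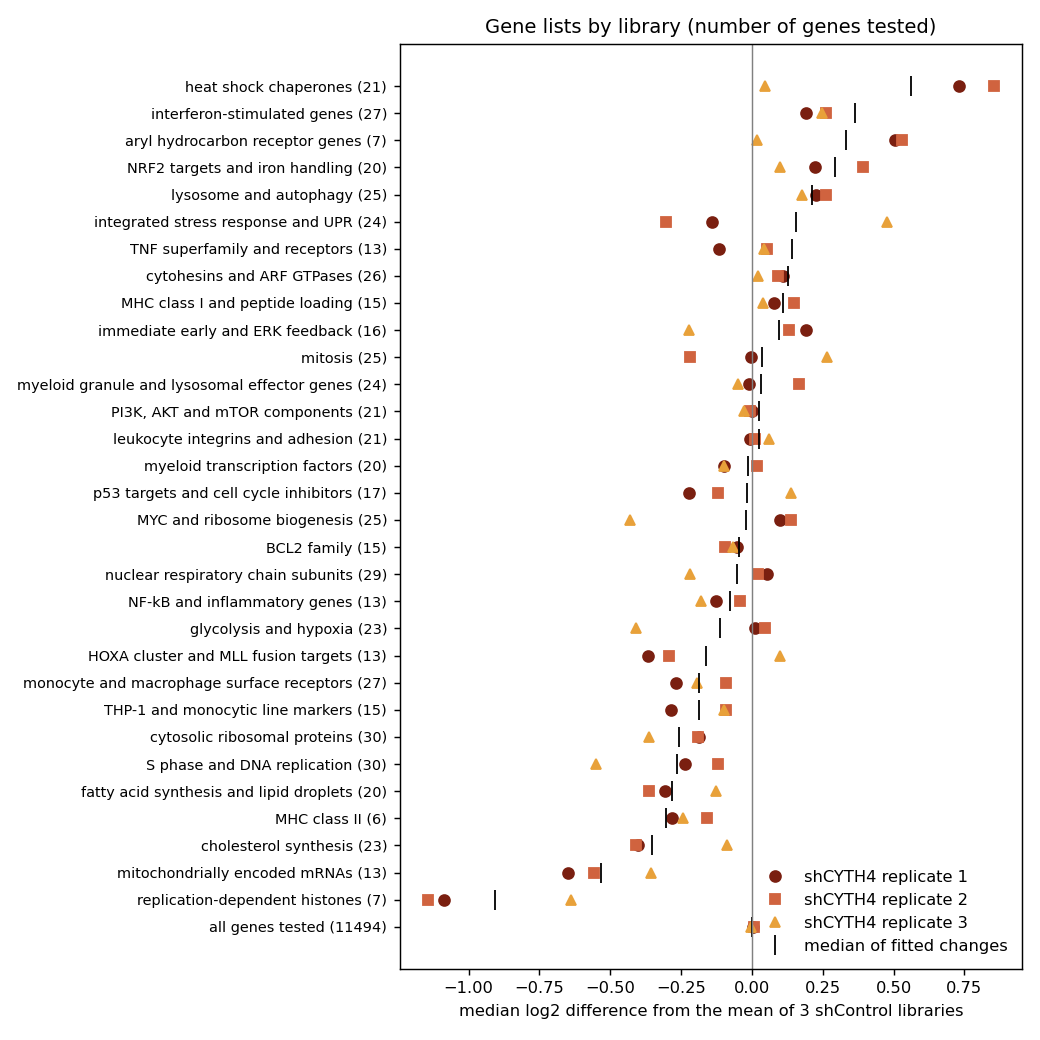
Median log2 difference from the shControl mean (x axis) in each shCYTH4 library for every gene list with at least 5 tested genes (rows, with the number tested), and the median of the fitted changes as a black tick. Heat shock chaperones (0.73, 0.85 and 0.05) and the integrated stress response (-0.14, -0.30 and 0.48) separate replicate 3 from replicates 1 and 2, mitochondrial mRNAs and histones lie left of 0 in all 3, and all tested genes sit at 0.

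The response of THP-1 was set against that of MV4-11 by testing the difference of their log2 changes, THP-1 minus MV4-11. Of the 11494 genes, 69 passed (0.6%), 38 with the higher value in THP-1 and 31 with the lower, and 24 of these were also called within THP-1. In MV4-11 itself 129 of the same genes were called (1.12%), and 4 genes were called in both lines, 2 of them in the same direction. Without THP-1 shCYTH4 replicate 3 the difference was called for 813 genes, without THP-1 shCYTH4 replicates 1 and 2 for 13 and 15, without THP-1 shControl replicates 1, 2 and 3 for 27, 27 and 25, without MV4-11 shCYTH4 replicates 2 and 3 for 33 and 44, and without MV4-11 shControl replicate 2 for 43.

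LYZ was called in both lines, in opposite directions, as was C6orf223. In THP-1 LYZ rose, as given above, while in MV4-11 it averaged 1119 ± 25.5 FPKM with shCYTH4 and 1707 ± 129 FPKM with shControl (SD, n = 3 each), a log2 change of -0.67 (adjusted p = 0.0149), and the difference was 1.66 (SE 0.17, adjusted p = 0.00019). DNAJB2, P4HA2, HMOX1 and BAG3 had log2 changes of -0.35, -0.49, -1.02 and -0.47 in MV4-11, none of them called there, with differences of 1.84, 2.69, 2.58 and 1.39. P4HA2 and HMOX1 were low in MV4-11, at 0.0391 and 0.475 FPKM on average with shCYTH4 and 0.0551 and 0.933 FPKM with shControl. CYP1B1 averaged 3.30 ± 0.598 FPKM with shCYTH4 and 3.04 ± 1.06 FPKM with shControl in MV4-11 (SD, n = 3 each), so the level it reached in THP-1 shCYTH4 libraries was near that of MV4-11. FDPS, FDFT1 and FCGR1A had log2 changes of 0.20, 0.31 and 0.36 in MV4-11, also not called, with differences of -0.96, -0.99 and -1.06. CYTH4 itself was not detectably lower in the MV4-11 libraries labelled shCYTH4, so these values compare labelled arms.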

How the data were processed

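THP-1 and MV4-11 cells, 3 libraries each of shCYTH4 and shControl, gave poly(A) RNA that was read from both ends. The deposited table gives, per the file headers, whole-number estimated counts and FPKM for each gene; all 24 columns of values were matched to a sample and 0 were not. The short forms Sh and SC in the column names were read as shCYTH4 and shControl. The submitters' processing notes name fastp, StringTie and edgeR with neither version nor role. Aligner, genome build and annotation: not given in the sources used here. Positions are the file's own. Low deposited counts gather at multiples of 4, and 1 count does not stand for 1 fragment.

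Genes with at least 1 FPKM in at least 3 THP-1 libraries were tested on the estimated counts with the quasi-likelihood test of edgeR 4.0.16 (R 4.3.3; robust, TMM factors), with 4 group means over 12 libraries and 8 residual degrees of freedom. P-values were adjusted over all 11494 genes by Benjamini and Hochberg's method and called under 0.05. SE is that of the fitted log2 change, and library differences are on log2 CPM with a prior count of 2. The test had been planned for raw counts. Alternatives used limma 3.58.1, DESeq2 1.42.0, other scalings and filters, a replicate block, and fits that left out 1 library. The code was tested on simulated data. Named genes were CYTH4, the 12 largest called rises and falls with a symbol and at least 2 FPKM in the higher arm, the 6 most abundant called genes per direction, up to 4 called and the 3 largest further changes per list, 4 genes per direction of the difference between lines, and 8 genes per direction in which shCYTH4 replicate 3 differed most from replicates 1 and 2; some are not reported here. The members and gene lists were chosen with earlier results of these data known.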

Additional observations from a re-analysis of the deposited data

Results flagged for a closer look

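The difference of the log2 changes, THP-1 minus MV4-11, is given for 16 named genes called by edgeR's test of that difference, which is what singled them out. It was positive for P4HA2 (2.69), HMOX1 (2.58), CYP1B1 (2.42), DNAJB2 (1.84), LYZ (1.66) and BAG3 (1.39), which were called higher in THP-1. It was negative for C6orf223 (-3.23), FCGR1A (-1.06), FDFT1 (-0.99) and FDPS (-0.96), which were called lower there. C6orf223 was also called in MV4-11, but higher, with a log2 change of 2.02 (edgeR adjusted p = 0.00395). It was low there, at 0.358 FPKM on average with shCYTH4 and 0.0832 FPKM with shControl.

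For 6 other genes no change was called within THP-1 by edgeR. C3, a complement protein, averaged 0.242 FPKM with shCYTH4 and 4.71 FPKM with shControl in MV4-11, while THP-1 had 3.31 and 2.42 FPKM in these arms, a difference of 4.65. OLIG1 had a difference of 2.11. SLFN11, a restriction factor, averaged 12.1 ± 0.304 FPKM with shCYTH4 and 12.04 ± 2.25 FPKM with shControl in THP-1 (SD, n = 3 each), against 0.914 and 0.172 FPKM in MV4-11, a difference of -2.44. NLRP12, KCNQ5 and PMAIP1 had differences of -3.19, -2.41 and -1.37. In MV4-11, KCNQ5 was low, at 0.269 FPKM on average with shCYTH4 and 0.0663 FPKM with shControl. NLRP12 averaged 1.89 and 0.195 FPKM in these MV4-11 arms, and PMAIP1 10.6 and 6.33 FPKM.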

How the results depend on the processing

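The number of genes called in THP-1, 148, became 527 with DESeq2, 377 with quantile normalization and limma, 517 and 256 with limma on log2(FPKM + 1) and log2(FPKM + 0.1), and 236 with estimated counts divided by 4, an alternative chosen after seeing the data. It was 160 with RLE size factors, 211 with no filter, 187 with the filter over 12 libraries and 120 in the 6 THP-1 libraries alone. Of the 148, 12 passed an adjusted p of 0.01 and 52 changed by at least 1 on the log2 scale. With 1 library left out the count ranged between 9 and 743, and in the 6 THP-1 libraries alone between 6 and 1769, with 22, 6 and 32 without shControl replicates 1, 2 and 3 and 50 without shCYTH4 replicate 1. Deviations of same-numbered samples had correlations between -0.26 and 0.137, and those of other-numbered samples between -0.28 and 0.355. With 3 libraries per arm these values cannot settle whether the numbers pair samples, and the labels do not say. With a replicate block 5 genes were called, CYTH4 in THP-1 stood at -0.85 (adjusted p = 0.137) and the difference between lines was called for 30 genes. The 6 THP-1 libraries alone with a replicate block, also chosen after seeing the data, gave 562 calls. CYTH4 stayed below 0 in every fit, between -1.03 and -0.67 with 1 library left out, and at -0.91 (adjusted p = 0.0975) in the 6 THP-1 libraries alone without shControl replicate 1. The difference between lines, called for 69 genes, was called for 363 with DESeq2, 111 with limma on log2(FPKM + 1), 140 with no filter, 104 with quantile normalization, 5 at an adjusted p of 0.01, and 13 to 813 with 1 library left out. The mitochondrial share of counts in THP-1 differed by -1.59 percentage points, between -1.96 and -1.24 with 1 library left out, and the share of summed FPKM by -4.25. For G0S2 the log2 change of 1.07 became -0.094 without shCYTH4 replicate 3, and -0.091 in the 6 THP-1 libraries alone without it, against up to 1.44 without shCYTH4 replicate 1. No other named gene tested changed sign, leaving aside the genes named only for the gap between shCYTH4 replicate 3 and replicates 1 and 2. The cause was not tested.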

Other observations

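ID1 and CD1D were chosen as genes in which shCYTH4 replicate 3 lay furthest below replicates 1 and 2, so that order is a description. ID1, an inhibitor of differentiation factors, had 66.9, 73.9 and 8.37 FPKM with shCYTH4 against 4.41, 7.68 and 6.57 FPKM with shControl. CD1D, which presents lipids to T cells, had 9.92, 11.9 and 2.43 FPKM against 2.66, 3.28 and 3.36 FPKM in shControl. In both, replicates 1 and 2 lay above every control and replicate 3 did not stand with them, and neither ID1 nor CD1D was called (edgeR adjusted p = 0.162 and 0.161).

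S100A9, a calcium-binding protein of myeloid cells, had 155, 96.6 and 146 FPKM with shCYTH4 against 60.0, 72.6 and 32.7 FPKM with shControl, without overlap (adjusted p = 0.0917). ABCA1, which exports cholesterol, had 0.799, 0.903 and 1.98 FPKM against 3.96, 2.82 and 3.10 FPKM in shControl, also without overlap (adjusted p = 0.0616). Without shCYTH4 replicate 3 the adjusted p of ABCA1 was 0.00411.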
